A study of Arabidopsis thaliana with 21 samples.

Results

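The CLE (CLAVATA3/EMBRYO SURROUNDING REGION-RELATED) genes encode small secreted signalling peptides. The set examined here held every nuclear gene of the TAIR10.1 annotation whose symbol or synonym was CLE followed by digits, together with CLAVATA3 (CLV3). That gave 31 genes of 33056 annotated nuclear genes. Chromatin immunoprecipitation followed by sequencing (ChIP-seq) had been carried out on whole Arabidopsis thaliana seedlings 7 days after germination with antibodies against H2AK121ub, the monoubiquitin mark of Polycomb repressive complex 1 (PRC1), and H3K27me3, the methyl mark of Polycomb repressive complex 2 (PRC2). H2AK121ub was profiled in the atbmi1a/b/c triple mutant (atbmi1abc), the clf28/swn7 double mutant (clfswn) and the lhp1 mutant (the tfl2-2 allele), and H3K27me3 in atbmi1abc and clfswn, each against Col-0 wild type (WT). All plants were grown on agar plates in long days. Each group had 2 libraries from independent biological replicates, each with the chromatin of 150 pooled seedlings, and the 3 H2AK121ub comparisons shared their 2 WT libraries.

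The 10 tables analysed listed the peaks of a mutant library and of its WT library with the reads of both libraries in each peak. The WT libraries had between 4665828 and 9575222 reads in their own peaks, and the mutant libraries between 761013 in clfswn H3K27me3 and 9097784 in lhp1 H2AK121ub. A peak was assigned to a gene when it overlapped the gene body or the 2 kb upstream of its start, and a gene was represented by its peak with the most reads among those found in both replicates. Levels are given relative to WT after the rescaling line of the study, which stayed close to raw reads. Differences in total reads between a mutant and a WT library therefore remain in these levels. For H2AK121ub, the atbmi1abc libraries had 1760466 and 2911263 reads in their own peaks, against 7151170 and 7490200 in WT. The lhp1 libraries had 9097784 and 7802828. The paper reports that atbmi1abc libraries gave less DNA and mapped less well. A gene was called reduced at an adjusted p under 0.05 (edgeR's quasi-likelihood test with Benjamini-Hochberg adjustment over all peaks) and a level under 80% of WT, and increased above 120%. Errors are standard errors of the fitted log2 ratio of mutant to WT (n = 2 libraries per group), and values in parentheses after reads are these log2 ratios with their errors and adjusted p.

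CLE peptides are cut from the C-terminal part of short precursor proteins and are perceived by leucine-rich repeat receptor kinases at the cell surface. CLV3 restricts the stem cell pool of the shoot meristem through CLV1 and the homeobox gene WUS, CLE40 acts in the root tip, and the peptide of CLE41 and CLE44 (TDIF) moves from the phloem to the PXY receptor, where it keeps cambial cells dividing. In PRC1 the AtBMI1 proteins are needed for H2A monoubiquitination, CLF and SWN are the methyltransferases of PRC2, and LHP1 binds H3K27me3. Regulators of stem cell niches are well-known Polycomb targets in plants.

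The stretch that codes for the active peptide is what defines the family. It was found in all 31 genes as a run of 36 bases within 1 exon, in coding sequences of 225 to 498 bases. Its first codon is an arginine codon in 28 genes and a histidine codon in 3 genes, CLE41, CLE42 and CLE44. The runs of 10 genes that the results below turn on are shown 5' to 3' on the coding strand, read from the TAIR10.1 genome, with the first codon in capitals.
CLE41: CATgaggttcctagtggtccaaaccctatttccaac
CLE44: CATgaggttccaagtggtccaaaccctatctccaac
CLE42: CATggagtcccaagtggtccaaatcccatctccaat
CLV3: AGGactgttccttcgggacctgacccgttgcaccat
CLE40: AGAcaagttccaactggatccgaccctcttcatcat
CLE9: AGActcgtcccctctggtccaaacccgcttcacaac
CLE10: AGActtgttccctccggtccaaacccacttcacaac
CLE5: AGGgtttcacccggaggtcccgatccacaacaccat
CLE6: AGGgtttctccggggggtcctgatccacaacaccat
CLE22: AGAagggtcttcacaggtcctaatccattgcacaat
The CLE41 run, at chr3:9047040-9047075 on the plus strand, differed from that of CLE44, at chr4:7662667-7662702 on the minus strand, at 2 of 36 bases, and from that of CLE42 at 8 bases. The runs of CLE9 and CLE10 differed at 4 bases, as did those of CLE5 and CLE6, whereas CLV3 and CLE40 differed at 13 bases. CLE5 and CLE6 lie side by side on chromosome 2 (chr2:13252076-13252914 and chr2:13254152-13254859), and CLE4 and CLE7 lie upstream of them on the same strand (chr2:13238021-13238628 and chr2:13241345-13241856). Chromosome 1 held 15 of the 31 genes.

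Most CLE genes carried Polycomb marks in WT seedlings. H2AK121ub was found at 26 of 31 CLE genes (83.9%), against 21217 of 33056 annotated genes (64.2%), and H3K27me3 at 23 CLE genes (74.2%), against 11061 annotated genes (33.5%). A peak had to be present in both WT replicates. Both marks were found at 20 CLE genes (64.5%), against 27.1% of annotated genes. CLE genes are short, with a median length of 829 bp, against 2078 bp for protein-coding genes, and the longest, CLE11, spans 2999 bp. Among the 20430 protein-coding genes no longer than CLE11, 13695 carried H2AK121ub, 7579 (37.1%) H3K27me3 and 6213 (30.4%) both. No enrichment test was made on these shares.

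**Figure D1:**
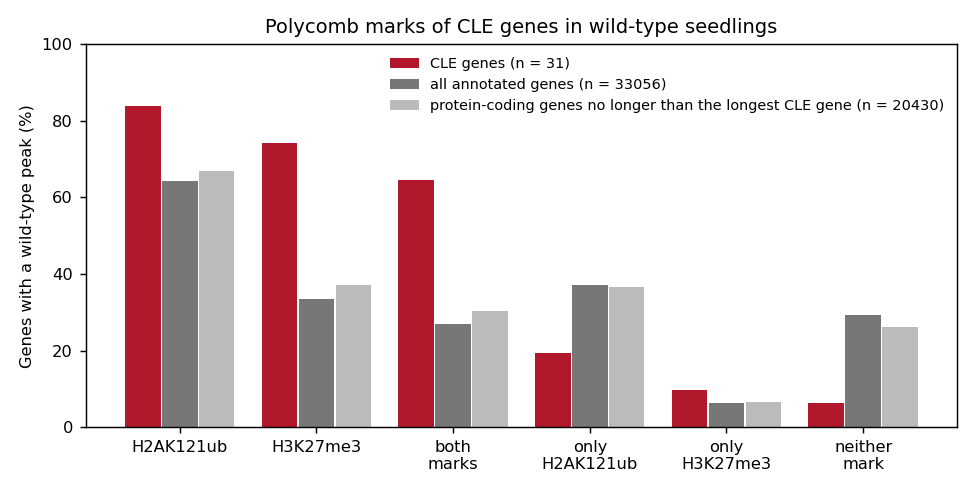
Percentage of genes with a peak of each mark in both wild-type replicates, in the gene body or 2 kb upstream, for the CLE genes (red), all annotated genes (dark grey) and protein-coding genes no longer than the longest CLE gene (light grey). Both marks were found at 64.5% of CLE genes and at 27.1% of all annotated genes, and neither mark at 6.45% of CLE genes and at 29.4% of all annotated genes.

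The 20 genes with both marks were CLV3, the TDIF-type genes CLE41, CLE42 and CLE44, CLE2, CLE3, CLE4, CLE5, CLE6, CLE9, CLE10, CLE11, CLE12, CLE13, CLE14, CLE17, CLE21, CLE26, CLE27 and CLE43. H2AK121ub without H3K27me3 was found at 6 genes, CLE1, CLE16, CLE18, CLE20, CLE22 and CLE40 (19.4%, against 37.1% of annotated genes). Only H3K27me3 was found at CLE7, CLE8 and CLE19 (9.68%, against 6.4%). CLE8 and CLE19 are known for roles in the embryo. Neither mark was found at CLE25 and CLE45, which act in phloem and long-distance signalling, and these 2 genes had no peak in any of the 10 tables. CLE40 depended on the WT libraries used: the H3K27me3 controls of clfswn had a peak over it in both replicates, which made 24 of 31 genes with that mark.

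The H2AK121ub peak that represented a gene in the atbmi1abc comparison overlapped the gene body in 21 of 26 CLE genes (58.8% of all genes tested) and the annotated start in 10 of 26 (17.1% of all genes). These peaks had a median length of 960 bp, against 696 bp over all genes, and 23 of 26 overlapped the body of no other gene. H3K27me3 peaks were longer, with a median of 3398 bp against 1843 bp over all genes, and covered the whole gene body at 13 of 24 CLE genes. Most of them also reached other genes, and 9 of 24 overlapped the body of no other gene. CLE4 and CLE7 lay in 1 H3K27me3 peak (chr2:13233812-13245165), and CLE5 and CLE6 in another (chr2:13246802-13255243), so that the H3K27me3 values of each pair are 1 measurement.

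In windows of 250 bases before to 50 bases after the gene start, the GAGA-type motif GAGAGAGA was found, on either strand, at 2 of 31 CLE genes (CLE26 and CLV3), against 7.87% of 33054 genes. The telobox AAACCCTA was found at none of the 31 windows, against 6.16% of all windows, and its shorter core ACCCTA, which the telobox contains, at 1 (CLE17), against 12.1%. These matches are descriptions of the letters in the windows.

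To ask how far H2AK121ub at CLE genes depended on AtBMI1, PRC2 or LHP1, the 3 mutants were each compared with WT. In atbmi1abc, H2AK121ub was reduced at 18 of the 26 CLE genes with a matched peak (69.2%) and increased at none, beside 66.3% of 22055 genes reduced and 0.667% increased. The median level of the CLE genes was 52.9% of WT (median log2 ratio -0.92), against 50.5% (-0.99) over all genes. The share of CLE genes reduced was thus close to that of all genes. H2AK121ub was lower than WT in both replicates at 24 of 26 CLE genes, with CLE21 and CLE14 as the exceptions, and the highest fitted log2 ratio was -0.12. The CLE21 region of replicate 2 was called in atbmi1abc and not in WT. DESeq2 likewise called 18 reduced and none increased. The 3 genes with the strongest reduction were CLE41, CLE44 and CLE2. In whole seedlings, a change in the mark within cells and a change in the share of cells that carry it cannot be told apart. The call also depended on the scaling. The rescaling of the study was built on peaks of genes without changed expression, and when libraries were instead scaled to their total reads over matched peaks the median over all genes moved to 0.05 and 5 CLE genes were reduced and 6 increased, beside 22.9% and 27.9% of all genes. The 5 genes reduced under this scaling were CLE2, CLE9, CLE20, CLE41 and CLE44, and the same 5 were reduced with TMM scaling. At the peaks that represented them, the log2 ratios of CLE4, CLE5, CLE10 to CLE14, CLE16, CLE17, CLE18, CLE21, CLE22, CLE26, CLE40, CLE42 and CLV3 were above 0 under both of these scalings. The values of these peaks below are therefore losses on the scale of the study only. This does not cover other peaks of these genes, such as the peak inside CLE11 and the peak over the body of CLE21.

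In clfswn, 5 of 28 CLE genes had reduced H2AK121ub (CLE9, CLE11, CLE18, CLE20 and CLE41) and 5 had increased H2AK121ub (CLE5, CLE7, CLE19, CLE21 and CLV3). Over all 23671 genes tested, 29.5% were reduced and 12.3% increased. CLE genes had a median level of 97.5% of WT, against 91.6% over all genes. CLE7 and CLE19 entered this comparison only through peaks called in clfswn and not in WT, so that these regions were chosen through the mutant libraries. The CLE21 region of replicate 2 was also called in clfswn and not in WT. Its level was 140% of WT, against 102% in replicate 1 at a WT peak. Fewer genes were called with other models: 1 reduced and none increased without the replicate block, and 3 reduced and none increased with DESeq2.

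In lhp1, none of 26 CLE genes had reduced H2AK121ub and 1 had increased H2AK121ub (CLE11), beside 0.844% of 22512 genes reduced and 9.71% increased. With edgeR, 6 of the 26 genes had an unadjusted p under 0.05, and DESeq2 called none in either direction. Median levels were 103% of WT over CLE genes and 105% over all genes, and fitted log2 ratios ran between -0.27 and 0.38. LHP1 binds H3K27me3, and 20 of these 26 genes carried that mark in WT.

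**Figure D2:**
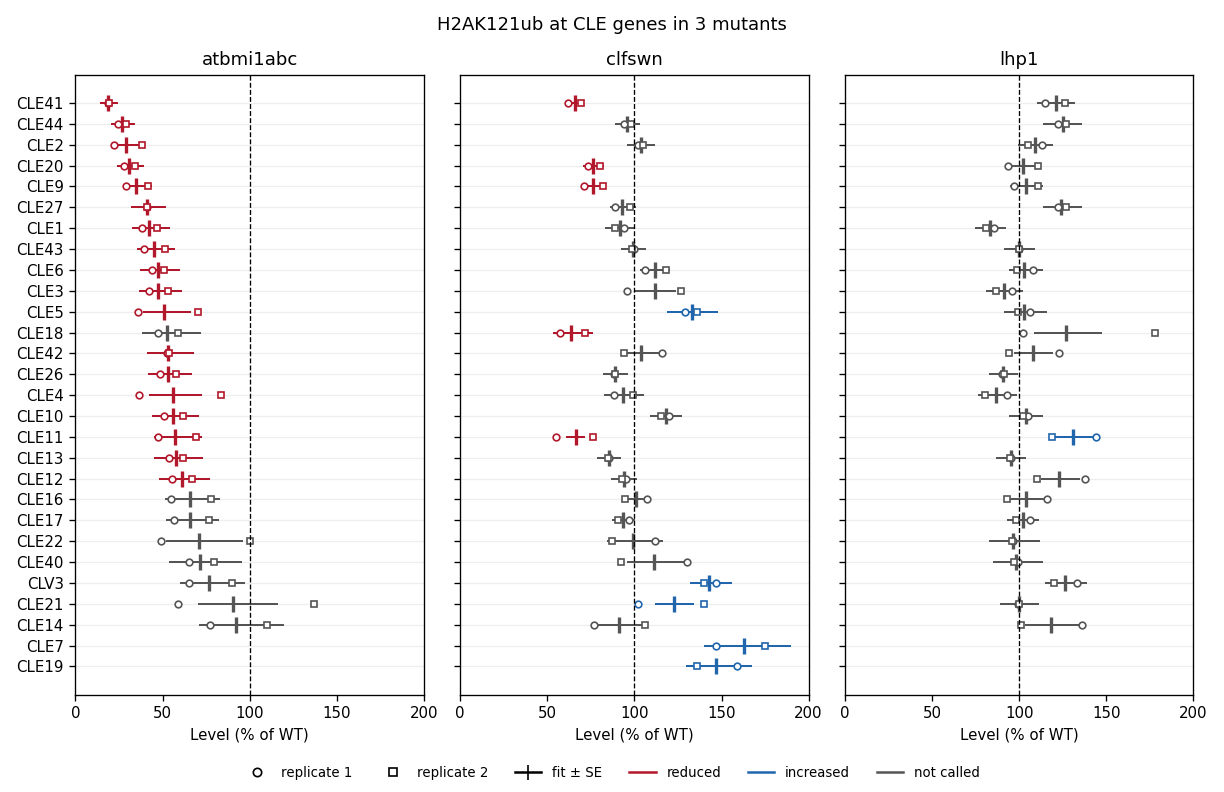
H2AK121ub level of each CLE gene as a percentage of WT in atbmi1abc, clfswn and lhp1 (circles, replicate 1; squares, replicate 2; bars, fitted level with its standard error; dashed line, WT). In atbmi1abc the called genes, in red, lie between 18.9% and 61.0%, whereas in lhp1 fitted levels lie between 83.1% and 131%.

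Among the TDIF-type genes, CLE41 had the lowest H2AK121ub level in atbmi1abc over the peaks that represented CLE genes. Its peak (chr3:9045264-9047294) covers the start and 85.6% of the gene body and had 211 and 218 reads in atbmi1abc, 767 and 810 reads in clfswn, and 1670 and 1535 reads in lhp1, against 1264 and 1200 in WT. In raw reads, neither mutant library overlapped the WT libraries in atbmi1abc or in clfswn. Both lhp1 libraries lay above WT in raw reads, and they also had more reads than WT over all of their peaks. The log2 ratio was -2.41 ± 0.34, adjusted p = 1.1e-10 in atbmi1abc, -0.61 ± 0.09, adjusted p = 7.6e-11 in clfswn and 0.27 ± 0.12, adjusted p = 0.16 in lhp1. In clfswn this rested on the limits of the peak: under the limits drawn in clfswn the log2 ratio was 0.11 (adjusted p = 0.39). Under the limits drawn in atbmi1abc the value for atbmi1abc was -1.79 (adjusted p = 1.1e-05), still a reduction but not the lowest.

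CLE44 had 2 H2AK121ub peaks. The one upstream of the gene (chr4:7663645-7665126) had 138 and 175 reads in atbmi1abc, 314 and 380 reads in clfswn, and 862 and 834 reads in lhp1, against 623 and 645 in WT. It was reduced in both atbmi1abc (-1.92 ± 0.34, adjusted p = 3.3e-07) and clfswn (-0.83 ± 0.11, adjusted p = 8.5e-14). The peak over the gene body and start (chr4:7662537-7663323) had 181 and 297 reads in atbmi1abc, 490 and 504 reads in clfswn, and 737 and 576 reads in lhp1, against 536 and 530 in WT. In atbmi1abc it was reduced too (-1.08 ± 0.33, adjusted p = 0.0032), whereas in clfswn it was not called (-0.06 ± 0.10, adjusted p = 0.66). This body peak held the most reads in the clfswn comparison and therefore represented CLE44 there. CLE42, known for a role in axillary bud formation, had 113 and 145 reads in atbmi1abc, 269 and 260 reads in clfswn, and 328 and 275 reads in lhp1, against 239 and 285 in WT. Its log2 ratio was -0.92 ± 0.35, adjusted p = 0.015 in atbmi1abc, and it was not called in clfswn (0.06 ± 0.13, adjusted p = 0.75) or lhp1 (0.11 ± 0.14, adjusted p = 0.73).

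At the 2 meristem genes, CLV3 and CLE40, H2AK121ub was not called in atbmi1abc. CLV3 had 169 and 256 reads in atbmi1abc, 413 and 410 reads in clfswn, and 428 and 370 reads in lhp1, against 288 and 302 in WT. The mutant libraries lay below WT in atbmi1abc but the difference was not called (-0.38 ± 0.33, adjusted p = 0.29), while H2AK121ub increased in clfswn (0.52 ± 0.11, adjusted p = 3.4e-05) and was not called in lhp1 (0.34 ± 0.13, adjusted p = 0.089). The clfswn call of CLV3 was lost with DESeq2 and without the replicate block. In atbmi1abc the sign for CLV3 depended on the scaling, with log2 ratios of 0.65 when scaled to total reads and 0.59 with TMM. CLE40, whose peak is short and covers its start, had 52 and 61 reads in atbmi1abc, 111 and 72 reads in clfswn, and 95 and 80 reads in lhp1, against 88 and 80 in WT. It was not called in any of the 3 mutants, with log2 ratios of -0.48 ± 0.41 in atbmi1abc, 0.15 ± 0.20 in clfswn and -0.03 ± 0.20 in lhp1. In atbmi1abc the sign for CLE40 turned as well, with log2 ratios of 0.58 scaled to total reads and 0.52 with TMM.

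CLE9 and CLE10 encode the same peptide, which restrains divisions in the stomatal lineage and in xylem. CLE9 had the most H2AK121ub reads of the family in WT, with 410 and 563 reads in atbmi1abc, 1103 and 1142 reads in clfswn, and 1773 and 1626 reads in lhp1, against 1590 and 1443 in WT. It was reduced in atbmi1abc (-1.53 ± 0.32, adjusted p = 1.7e-05) and, to a smaller extent, in clfswn (-0.39 ± 0.08, adjusted p = 1.3e-05). CLE10 had 213 and 246 reads in atbmi1abc, 548 and 472 reads in clfswn, and 551 and 439 reads in lhp1, against 467 and 422 in WT. It was reduced in atbmi1abc (-0.84 ± 0.33, adjusted p = 0.02), and its level in clfswn, 118% of WT, missed the threshold (0.24 ± 0.10, adjusted p = 0.054). The difference between the 2 genes was not tested.

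CLE1, CLE3, CLE4 and CLE7 are induced in roots by nitrogen deficiency, and CLE5 and CLE6 act at the leaf base. CLE3 had 62 and 101 reads in atbmi1abc, 150 and 247 reads in clfswn, and 171 and 178 reads in lhp1, against 162 and 200 in WT. CLE4, marked only upstream, had 48 and 99 reads in atbmi1abc, 125 and 120 reads in clfswn, and 149 and 102 reads in lhp1, against 146 and 124 in WT. Both genes were reduced in atbmi1abc (CLE3, -1.08 ± 0.36, adjusted p = 0.0061, and CLE4, -0.84 ± 0.37, adjusted p = 0.039) and neither was called in the other mutants. The CLE4 call was lost with DESeq2 (adjusted p = 0.094) and without the block, and the level of CLE4 was 36.5% of WT in replicate 1 and 83.8% in replicate 2. CLE2, with 3 matched peaks, had at the one over its body 106 and 192 reads in atbmi1abc, 526 and 544 reads in clfswn, and 671 and 572 reads in lhp1, against 528 and 533 in WT. This was the third strongest reduction in atbmi1abc (-1.77 ± 0.34, adjusted p = 2.6e-06), and the peak was not called in clfswn (0.05 ± 0.10, adjusted p = 0.71). Farthest upstream of CLE2, the peak at chr4:10209163-10209659 had 83 and 192 reads in atbmi1abc, against 176 and 155 in WT, and was not called (-0.26 ± 0.36, adjusted p = 0.52).

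CLE5 had 46 and 106 reads in atbmi1abc, 177 and 210 reads in clfswn, and 165 and 162 reads in lhp1, against 141 and 159 in WT, at a peak that also lies upstream of CLE6. It was reduced in atbmi1abc (-0.97 ± 0.37, adjusted p = 0.016) and increased in clfswn (0.41 ± 0.15, adjusted p = 0.021), with both replicates on the same side each time. The increase in clfswn was lost with DESeq2 (adjusted p = 0.35) and without the block (adjusted p = 0.27). CLE6, at its own body peak, had 156 and 204 reads in atbmi1abc, 406 and 483 reads in clfswn, and 480 and 426 reads in lhp1, against 395 and 423 in WT. Here too H2AK121ub was reduced in atbmi1abc (-1.08 ± 0.33, adjusted p = 0.0032), and the difference in clfswn was not called (0.16 ± 0.11, adjusted p = 0.24).

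Of the remaining genes with both marks, CLE27 had 187 and 184 reads in atbmi1abc, 440 and 447 reads in clfswn, and 699 and 610 reads in lhp1, against 508 and 472 in WT. CLE43 had 243 and 350 reads in atbmi1abc, 672 and 694 reads in clfswn, and 773 and 739 reads in lhp1, against 687 and 726 in WT. CLE26, a phloem gene, had 174 and 294 reads in atbmi1abc, 343 and 467 reads in clfswn, and 402 and 502 reads in lhp1, against 399 and 540 in WT. At these peaks all 3 were reduced in atbmi1abc and not called in clfswn or lhp1, with log2 ratios of -1.29 ± 0.33, adjusted p = 0.00047 for CLE27, -1.15 ± 0.33, adjusted p = 0.0017 for CLE43 and -0.92 ± 0.33, adjusted p = 0.011 for CLE26. CLE26 also had a short upstream peak (chr1:26355839-26356074), with 29 and 54 reads in atbmi1abc, 26 and 36 reads in clfswn, and 123 and 86 reads in lhp1, against 57 and 84 in WT. On these few reads it was lower in clfswn (-1.14 ± 0.27, adjusted p = 0.0001) and not called in atbmi1abc (-0.71 ± 0.44, adjusted p = 0.14). CLE12 had 201 and 285 reads in atbmi1abc, 371 and 409 reads in clfswn, and 622 and 510 reads in lhp1, against 401 and 454 in WT. CLE13 had 254 and 322 reads in atbmi1abc, 438 and 457 reads in clfswn, and 561 and 537 reads in lhp1, against 525 and 555 in WT. These 2 genes were reduced in atbmi1abc by less, -0.71 ± 0.33, adjusted p = 0.047 for CLE12 and -0.79 ± 0.33, adjusted p = 0.028 for CLE13.

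CLE11 carried H2AK121ub at a peak inside the annotated gene and at one upstream. In replicate 1 the inner peak lay outside the exons (chr1:18129299-18130450). In replicate 2 it was longer (chr1:18128578-18130457) and took in the 36-base run of CLE11, so the replicates measured different stretches of the gene. The inner peak had 88 and 241 reads in atbmi1abc, 222 and 499 reads in clfswn, and 674 and 818 reads in lhp1, against 416 and 673 in WT. It was the CLE peak called in all 3 mutants, lower in atbmi1abc (-1.73 ± 0.34, adjusted p = 4.4e-06) and clfswn (-0.60 ± 0.11, adjusted p = 3.7e-07) and higher in lhp1 (0.38 ± 0.12, adjusted p = 0.024). The lhp1 call was lost with DESeq2, without the block and with total-read scaling. It was also lost under the limits drawn in lhp1 and with level limits of 67% and 150%. At the upstream peak, which represented CLE11 in the atbmi1abc comparison, there were 194 and 304 reads in atbmi1abc, 346 and 345 reads in clfswn, and 639 and 565 reads in lhp1, against 454 and 468 in WT. This peak was reduced in atbmi1abc (-0.80 ± 0.33, adjusted p = 0.027) and lower in clfswn (-0.38 ± 0.11, adjusted p = 0.0023).

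At the peaks that represented them, CLE14, CLE17 and CLE21 kept H2AK121ub nearest to WT in atbmi1abc among the genes with both marks other than CLV3. CLE14, known from roots short of phosphate, had 75 and 111 reads in atbmi1abc, 79 and 110 reads in clfswn, and 160 and 110 reads in lhp1, against 107 and 106 in WT. CLE17 had 424 and 581 reads in atbmi1abc, 796 and 715 reads in clfswn, and 1012 and 812 reads in lhp1, against 841 and 814 in WT. Neither was called in atbmi1abc (CLE14, -0.12 ± 0.37, adjusted p = 0.78, CLE17, -0.61 ± 0.32, adjusted p = 0.084). At CLE21 the upstream peak, with 105 and 207 reads in atbmi1abc, against 197 and 160 in WT, was not called (-0.14 ± 0.35, adjusted p = 0.72), and its replicates lay on opposite sides of WT. Its region in replicate 2 was called in atbmi1abc and not in WT, so that it was chosen through the mutant library. The body peak of CLE21 had 81 and 81 reads in atbmi1abc, against 214 and 182 in WT, and was lower (-1.19 ± 0.36, adjusted p = 0.0026). In clfswn the upstream peak had 195 and 452 reads in the mutant, against 197 and 332 in WT, and was increased (0.29 ± 0.12, adjusted p = 0.041), while the body peak, with 141 and 157 reads in the mutant, against 214 and 182 in WT, was lower (-0.37 ± 0.15, adjusted p = 0.04). The upstream region of replicate 2 was called in clfswn and not in WT, and upstream levels were 102% of WT in replicate 1 and 140% in replicate 2. In lhp1 the body peak represented CLE21 and had 235 and 187 reads in the mutant, against 214 and 182 in WT.

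Of the 6 genes with H2AK121ub alone in WT, CLE1 and CLE20 were reduced in atbmi1abc. CLE1 had 107 and 125 reads in atbmi1abc, 283 and 244 reads in clfswn, and 294 and 233 reads in lhp1, against 310 and 282 in WT, with a log2 ratio of -1.25 ± 0.35, adjusted p = 0.0011 in atbmi1abc. CLE20 had 164 and 189 reads in atbmi1abc, 469 and 455 reads in clfswn, and 695 and 662 reads in lhp1, against 659 and 585 in WT, and was reduced in clfswn as well (-0.39 ± 0.10, adjusted p = 0.00061), after -1.71 ± 0.34, adjusted p = 4.7e-06 in atbmi1abc. CLE18 had 38 and 48 reads in clfswn, against 70 and 69 in WT, and was the lowest of the representing peaks in clfswn (-0.65 ± 0.25, adjusted p = 0.023), on few reads. In atbmi1abc CLE18 had 30 and 39 reads in the mutant, against 70 and 69 in WT, CLE16 had 249 and 387 reads in the mutant, against 505 and 529 in WT, and CLE22, at an upstream peak, had 30 and 70 reads in atbmi1abc, against 68 and 73 in WT. None of these 3 was called, with adjusted p = 0.054 for CLE18, 0.091 for CLE16 and 0.29 for CLE22. CLE19, without a WT peak, had 136 and 129 reads in clfswn, against 88 and 97 in WT (0.56 ± 0.18, adjusted p = 0.0056). CLE7, likewise without a WT peak, had 73 and 120 reads in clfswn, against 51 and 70 in WT (0.71 ± 0.22, adjusted p = 0.0038). Both genes also had a peak called in 1 atbmi1abc library and not in WT. In replicate 2, CLE7 had 101 reads in atbmi1abc, against 68 in WT, and CLE19 had 32 reads in atbmi1abc, against 58 in WT, with no test.

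The mutants were also compared with each other directly, in a joint fit of the 8 distinct H2AK121ub libraries at WT peaks, where the shared WT libraries cancel. H2AK121ub was higher in clfswn than in atbmi1abc at 23 of 26 CLE genes, beside 74.3% of 21112 genes, and lower at none (0.829% of all genes). It was higher in lhp1 than in atbmi1abc at 23 of 26 CLE genes (85.7% of all genes) and lower at none (0.27%). Between lhp1 and clfswn, 3 of 26 CLE genes were higher in lhp1 (25.2% of all genes) and none lower (2.24%). The 3 genes, with their log2 differences, were CLE44 at its upstream peak (1.15 ± 0.22, adjusted p = 2.6e-06), CLE11 at its inner peak (1.02 ± 0.22, adjusted p = 4.5e-05) and CLE41 (0.87 ± 0.20, adjusted p = 0.00017). Median log2 differences were 1.02 over CLE genes and 0.83 over all genes for clfswn minus atbmi1abc, 0.97 and 1.08 for lhp1 minus atbmi1abc, and 0.06 and 0.23 for lhp1 minus clfswn. These differences depended on the scaling as well. With TMM, 8 CLE genes were higher in clfswn than in atbmi1abc (25.6% of all genes) and 2 lower (21.6%). For lhp1 minus atbmi1abc, 7 were higher (29.9%) and 9 lower (28.0%). For lhp1 minus clfswn, CLE11, CLE41 and CLE44 remained the 3 that were higher (21.9%), and 7 were lower (23.6%). Without the replicate block, CLE41 and CLE44 were higher in lhp1 than in clfswn (11.4% of all genes) and CLE11 was not called. CLE41 was higher than in atbmi1abc in both other mutants on the scale of the study and with TMM, as were CLE2, CLE9, CLE20 and CLE27.

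H3K27me3 was far below WT at CLE genes in clfswn. It was reduced at 23 of 24 CLE genes with a matched peak and increased at none, beside 72.4% of 13736 genes reduced and 9.52% increased. CLE genes kept a median of 8.0% of the WT level (log2 ratio -3.64), against 12.7% over all genes (-2.97). Both replicates were below WT at all 24 genes, but they differed from each other: levels ran between 3.45% and 15.4% of WT in replicate 1 and between 8.48% and 43.9% in replicate 2. The lowest adjusted p over the CLE genes was 0.029. CLE13 was not called (adjusted p = 0.055) at a level of 25.2%. Scaled to total reads over matched peaks, 19 CLE genes were reduced, beside 61.5% of all genes, and the CLE median was -1.44. With TMM, 16 were reduced, beside 43.3% of all genes, and the median was -0.91. The log2 ratios of CLE13, CLE40 and CLE43 were then above 0 under both scalings, and those of CLE11 and CLE42 with TMM. No CLE gene was increased with edgeR or DESeq2, and the highest fitted log2 ratio was -1.99.

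In atbmi1abc, H3K27me3 changed in both directions at CLE genes, as it did over all genes. H3K27me3 was reduced at 11 of 24 CLE genes (42.7% of 12697 genes) and increased at 3 (23.4% of all genes). The share of CLE genes reduced was close to that of all genes. Median levels were 83.1% of WT for CLE genes and 86.0% for all genes. Scaled to total reads over matched peaks, 8 CLE genes were reduced and 7 increased, beside 30.9% and 36.8% of all genes. Without the replicate block 6 were reduced and 1 increased. The reduced genes were CLE2, CLE3, CLE8, CLE9, CLE11, CLE13, CLE19, CLE27, CLE41, CLE43 and CLE44, with levels between 21.6% and 67.2% of WT, and the increased genes were CLE22, CLE40 and CLE42.

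**Figure D3:**
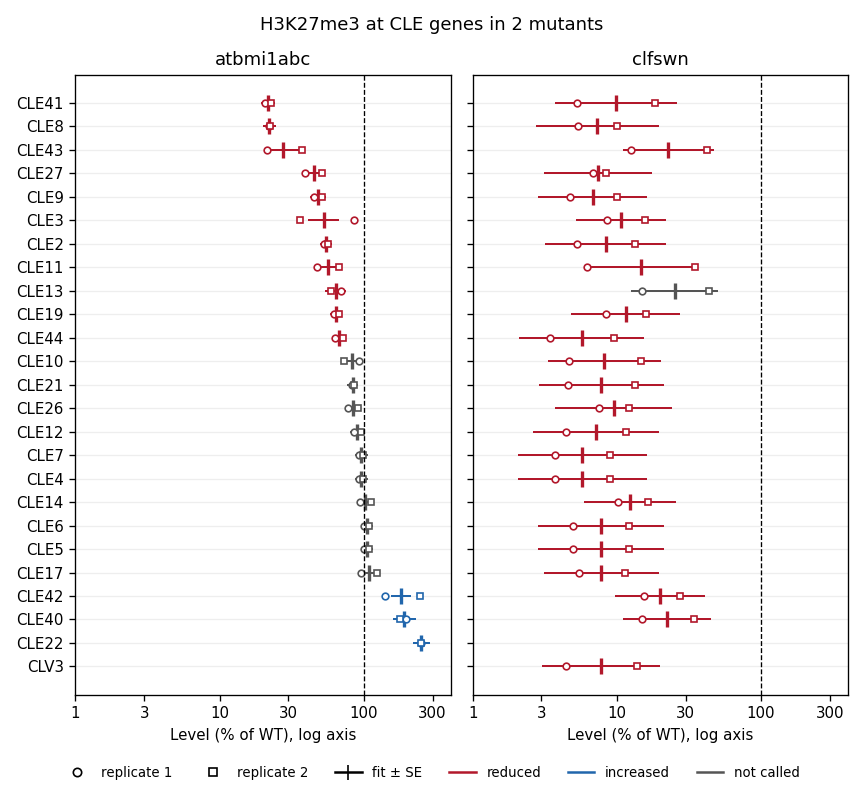
H3K27me3 level of each CLE gene as a percentage of WT in atbmi1abc and clfswn, on a log axis (circles, replicate 1; squares, replicate 2; bars, fitted level with its standard error; dashed line, WT). Levels in atbmi1abc run from 21.6% at CLE41 to 250% at CLE22, and in clfswn all 24 genes lie below WT. CLE4 and CLE7, and CLE5 and CLE6, share a peak.

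Over the representing peaks, CLE41 again stood lowest in atbmi1abc. Its H3K27me3 peak (chr3:9045305-9048773), which covers the whole gene, had 264 and 246 reads in atbmi1abc, against 1304 and 1073 in WT. The log2 ratio was -2.21 ± 0.14, adjusted p = 1.2e-53. In clfswn it had 110 and 238 reads in the mutant, against 2156 and 1371 in WT (-3.35 ± 1.38, adjusted p = 0.032). CLE44 had 935 and 812 reads in atbmi1abc, against 1515 and 1154 in WT, in the peak reaching its 3' end (-0.57 ± 0.11, adjusted p = 7.2e-07). Upstream of CLE44 there were 242 and 86 reads in atbmi1abc, against 666 and 227 in WT, a stronger reduction (-1.44 ± 0.16, adjusted p = 1.6e-17), whereas the peak over the CLE44 body, with 192 and 177 reads in atbmi1abc, against 239 and 208 in WT, was not called (-0.28 ± 0.18, adjusted p = 0.15). In clfswn the 3' peak of CLE44 had 82 and 146 reads in the mutant, against 2449 and 1580 in WT, and the lowest level of the family (-4.13 ± 1.42, adjusted p = 0.029).

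CLE42 went the other way in atbmi1abc. Its upstream peak had 212 and 171 reads in atbmi1abc, against 151 and 69 in WT, and was increased (0.86 ± 0.20, adjusted p = 6.1e-05), while the peak over its body, with 104 and 125 reads in atbmi1abc, against 119 and 87 in WT, was not called (0.15 ± 0.23, adjusted p = 0.57). In clfswn the upstream peak of CLE42 had 33 and 30 reads in the mutant, against 222 and 106 in WT (-2.33 ± 1.01, adjusted p = 0.036). CLE40 had 187 and 79 reads in atbmi1abc, against 95 and 43 in WT (0.93 ± 0.24, adjusted p = 0.00027), and CLE22 had 410 and 229 reads in atbmi1abc, against 167 and 91 in WT (1.32 ± 0.17, adjusted p = 1.1e-13). The peaks of CLE40 and CLE22 were called in both atbmi1abc libraries and in neither WT library of that comparison, so that these regions were chosen through the mutant libraries. In clfswn, CLE40 had 21 and 40 reads in the mutant, against 148 and 113 in WT (adjusted p = 0.043, a level of 22.2%), at a peak called in the WT libraries.

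For CLV3 the H3K27me3 peaks were drawn differently in the 2 atbmi1abc replicates, and no test was made. In replicate 1 the peak over the gene (chr2:11664040-11666402) had 1031 reads in atbmi1abc, against 1019 in WT. In replicate 2 a longer peak around it (chr2:11654903-11669319) had 4282 reads in atbmi1abc, against 4096 in WT. The level was 104% and 108% of WT at these 2 peaks, so neither showed a loss. In replicate 1 a second peak, upstream of the gene (chr2:11667095-11669343), had 752 reads in atbmi1abc, against 508 in WT, a level of 152%. The longer peak of replicate 2 takes in most of that stretch, so its level is not that of the gene alone. In clfswn, CLV3 had 65 and 137 reads in the mutant, against 1514 and 1028 in WT (-3.68 ± 1.34, adjusted p = 0.029).

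CLE8, an embryo and endosperm gene with H3K27me3 alone, was among the most reduced in atbmi1abc, with 363 and 283 reads in atbmi1abc, against 1681 and 1270 in WT (-2.18 ± 0.13, adjusted p = 5.5e-64). Its peak also covers TEL2. CLE43 had 18 and 27 reads in atbmi1abc, against 86 and 72 in WT (-1.86 ± 0.34, adjusted p = 1.2e-07), on few reads. CLE27 had 239 and 243 reads in atbmi1abc, against 615 and 469 in WT (-1.15 ± 0.16, adjusted p = 3.1e-12). The 3 genes lost more than the median CLE gene, as did the next group. CLE9 had 215 and 179 reads in atbmi1abc, against 484 and 345 in WT (-1.06 ± 0.16, adjusted p = 1.0e-10). CLE2 had 693 and 537 reads in atbmi1abc, against 1339 and 962 in WT (-0.87 ± 0.12, adjusted p = 1.4e-12). CLE11 had 180 and 200 reads in atbmi1abc, against 382 and 297 in WT at its 3' part (-0.83 ± 0.16, adjusted p = 3.9e-07). Inside CLE11 a second H3K27me3 peak, beside the H2AK121ub peak described above, had 37 and 27 reads in atbmi1abc, against 234 and 155 in WT, and fell further (-2.63 ± 0.26, adjusted p = 1.2e-23).

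CLE3 had 28 and 29 reads in atbmi1abc, against 32 and 79 in WT, with 1 replicate close to WT (86.1%) and the other at 36.3% (-0.93 ± 0.34, adjusted p = 0.011). CLE13 had 111 and 86 reads in atbmi1abc, against 161 and 143 in WT (-0.64 ± 0.22, adjusted p = 0.005). In the remaining genes with both marks the change did not pass the limits. CLE10 had 448 and 373 reads in atbmi1abc, against 494 and 510 in WT (-0.28 ± 0.16, adjusted p = 0.1). CLE12, in a peak of 23538 bp that also covers TCP12, had 8076 and 6867 reads in atbmi1abc, against 9951 and 7527 in WT (-0.15 ± 0.15, adjusted p = 0.38). CLE21 and CLE26 had an adjusted p under 0.05 but levels of 83.9% and 84.2% of WT, above the limit of 80%. CLE21 had 1508 and 944 reads in atbmi1abc, against 1895 and 1120 in WT, and CLE26 had 1090 and 986 reads in atbmi1abc, against 1437 and 1101 in WT.

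The chromosome 2 neighbours kept H3K27me3 in atbmi1abc. The peak shared by CLE4 and CLE7 had 5016 and 4411 reads in atbmi1abc, against 5716 and 4598 in WT (-0.06 ± 0.13, adjusted p = 0.68), and the peak shared by CLE5 and CLE6 had 3183 and 3139 reads in atbmi1abc, against 3288 and 2982 in WT (0.07 ± 0.12, adjusted p = 0.6). CLE14 had 334 and 179 reads in atbmi1abc, against 360 and 159 in WT (0.02 ± 0.16, adjusted p = 0.91), and CLE17, at its upstream peak, had 2001 and 1632 reads in atbmi1abc, against 2165 and 1349 in WT (0.12 ± 0.11, adjusted p = 0.31). The fitted levels at these 4 peaks were 95.8% to 109% of WT.

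In clfswn the same neighbours lost H3K27me3 with the rest of the family. The CLE4 and CLE7 peak had 308 and 467 reads in clfswn, against 8548 and 5730 in WT (-4.11 ± 1.46, adjusted p = 0.029), and the CLE5 and CLE6 peak had 217 and 326 reads in clfswn, against 4543 and 2895 in WT (-3.69 ± 1.43, adjusted p = 0.03). CLE9 had 33 and 54 reads in clfswn, against 721 and 530 in WT (-3.88 ± 1.23, adjusted p = 0.029). CLE10 had 43 and 99 reads in clfswn, against 957 and 690 in WT. Every mutant library lay far below its WT library here. CLE2 had 105 and 172 reads in clfswn, against 2048 and 1344 in WT, and CLE3, with a short peak, had 7 and 13 reads in clfswn, against 93 and 79 in WT. At upstream peaks, CLE12 had 621 and 668 reads in clfswn, against 14409 and 6536 in WT, and CLE17 had 69 and 104 reads in clfswn, against 1311 and 931 in WT. All 4 were reduced, with levels between 7.17% and 10.7% of WT.

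The other genes with both marks showed the same in clfswn, at levels of 7.45% to 22.8% where called. CLE21, upstream, had 122 and 236 reads in clfswn, against 2750 and 1872 in WT, and CLE26 had 134 and 140 reads in clfswn, against 1849 and 1187 in WT. CLE27 had 60 and 35 reads in clfswn, against 906 and 402 in WT, and CLE14 had 31 and 17 reads in clfswn, against 316 and 99 in WT. CLE11 and CLE43 kept more in replicate 2 than in replicate 1. CLE11 had 28 and 108 reads in clfswn, against 473 and 317 in WT, a level of 6.19% in replicate 1 and 34.8% in replicate 2. CLE43 had 20 and 49 reads in clfswn, against 169 and 113 in WT, and CLE13, which was not called, had 16 and 32 reads in clfswn, against 113 and 70 in WT.

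The 2 marks were then set side by side in atbmi1abc, where the libraries of the 2 marks are separate. A matched peak of both marks was present at 21 CLE genes. The counts that follow are on the scale of the study. Of these, 9 had both marks reduced (42.9%, against 36.5% of 10459 genes): CLE2, CLE3, CLE9, CLE11, CLE13, CLE27, CLE41, CLE43 and CLE44. H2AK121ub alone was reduced at 7 genes, H3K27me3 alone at none, and neither at 5. Over all 10459 genes these counts were 2534, 1101 and 3006. The 9 genes were 56.2% of the 16 CLE genes with reduced H2AK121ub, against 60.1% over all genes, and all 9 of those with reduced H3K27me3, against 77.6% over all genes. Of the 9, only CLE2, CLE9, CLE41 and CLE44 had both marks reduced with TMM, and only CLE2, CLE9 and CLE41 with total-read scaling. CLE42 had H2AK121ub reduced, at its body, and H3K27me3 increased, at its upstream peak. The representing peaks of the 2 marks did not coincide at CLE11 and CLE44 either. In clfswn, where 23 CLE genes had both peaks, 3 had both marks reduced (CLE9, CLE11 and CLE41) and 19 had only H3K27me3 reduced. Both marks were reduced at 13.1% of all 11966 genes with both peaks, and only H3K27me3 at 7538 of them.

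**Figure D4:**
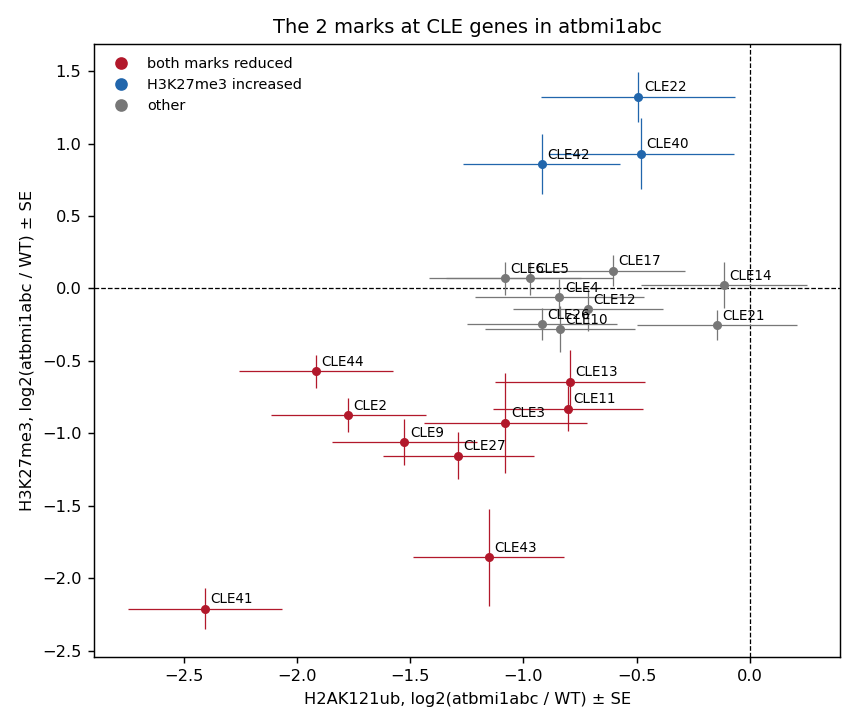
Fitted log2 ratio of atbmi1abc to WT at the 21 CLE genes with peaks of both marks, for H2AK121ub (horizontal) and H3K27me3 (vertical), with standard errors. The 9 genes with both marks reduced on the scale of the study are in red, at the lower left with CLE41 at -2.41 and -2.21, and the 3 genes with increased H3K27me3 in blue.

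The genes through which CLE peptides act were examined from a list of 26 receptor, signalling and target genes, 22 of which were found in the annotation. In WT, 19 of the 22 carried H2AK121ub and 9 carried H3K27me3, with both marks at 8. Of all annotated genes, 64.2% carried H2AK121ub, 33.5% H3K27me3 and 27.1% both. In atbmi1abc, H2AK121ub was reduced at 14 of the 19 with a matched peak and increased at none, on the scale of the study, beside 66.3% of all genes reduced. Among the receptors, CLV1, the receptor of CLV3, had 95 and 114 reads in atbmi1abc, against 463 and 388 in WT (log2 ratio -1.92 ± 0.35, adjusted p = 5.8e-07). PXY, the receptor of the CLE41 and CLE44 peptide, had 151 and 248 reads in atbmi1abc, against 710 and 717 in WT (log2 ratio -1.76 ± 0.34, adjusted p = 2.7e-06). BAM2, a relative of CLV1, had 43 and 72 reads in atbmi1abc, against 318 and 343 in WT (log2 ratio -2.46 ± 0.37, adjusted p = 1.9e-09). These 3 receptors were reduced, and ACR4, which acts with CLE40 in the root tip, was not called, with 84 and 124 reads in atbmi1abc, against 116 and 129 in WT (log2 ratio -0.15 ± 0.36, adjusted p = 0.7).

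In clfswn, H2AK121ub was reduced at 7 of these 22 genes, beside 29.5% of all genes, and increased at 3, beside 12.3%, and in lhp1 it was reduced at none of 21, beside 0.844% of all genes, and increased at 1, beside 9.71%. BAM2 was lower in clfswn as well, with 127 and 118 reads in clfswn, against 318 and 343 in WT (log2 ratio -1.39 ± 0.14, adjusted p = 7.2e-21). WUS, the target of the CLV3 pathway, was among the increased genes, with 754 and 845 reads in clfswn, against 583 and 611 in WT (log2 ratio 0.46 ± 0.09, adjusted p = 8.6e-06). MAKR5, which acts downstream of CLE45 and BAM3, was the gene increased in lhp1, with 980 and 922 reads in lhp1, against 615 and 638 in WT (log2 ratio 0.50 ± 0.12, adjusted p = 0.0013).

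For H3K27me3 in atbmi1abc, 6 of the 10 listed genes that had a matched peak were reduced, beside 42.7% of all genes, and 3 increased, beside 23.4%. The homeobox targets were reduced: WUS had 1368 and 1659 reads in atbmi1abc, against 2217 and 2435 in WT (log2 ratio -0.58 ± 0.11, adjusted p = 1.6e-07), WOX4, which acts below PXY in the cambium, had 822 and 657 reads in atbmi1abc, against 1352 and 1069 in WT (log2 ratio -0.68 ± 0.12, adjusted p = 1.1e-08), and WOX5, of the root stem cell niche, had 824 and 777 reads in atbmi1abc, against 1685 and 1171 in WT (log2 ratio -0.79 ± 0.11, adjusted p = 9.1e-12). WUS was one of the genes the study used to judge its rescaling of H2AK121ub in atbmi1abc, so its direction for that mark is not independent of the scale. HSL1 (log2 ratio 0.43 ± 0.12, adjusted p = 0.00038) and BRX (log2 ratio 0.67 ± 0.16, adjusted p = 6.7e-05), which both carried H3K27me3 in WT, were increased. CLV1 was increased too, with 158 and 134 reads in atbmi1abc, against 63 and 43 in WT (log2 ratio 1.47 ± 0.24, adjusted p = 7.7e-09). Its region was not a WT peak in both replicates, so that in at least 1 replicate it was chosen through the mutant library. In clfswn 8 of 10 listed genes were reduced, beside 72.4% of all genes, and 1, BAM1, was increased on few WT reads, with 78 and 219 reads in the mutant, against 16 and 26 in WT (log2 ratio 2.75 ± 1.16, adjusted p = 0.034). BAM1 did not carry H3K27me3 in both WT controls of atbmi1abc. Its region in clfswn may therefore have been chosen through the mutant libraries, which was not checked in the WT controls of clfswn.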

How the data were processed

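The authors mapped single-end reads to TAIR10 with Bowtie, called peaks with MACS2 against 1 input sample and, for each pair of a mutant and a WT library, deposited a table of peaks with raw read counts of both libraries. Counts were whole numbers, not normalized. The authors also deposited columns of a rescaled log2 ratio and mean log2 level (MAnorm, a regression over peaks common to both libraries that changed by at most 20%, in atbmi1abc further limited to genes without changed expression) and -log10 p-values. Their ratios and p-values were not used; the deposited mean log2 level served only to recover the rescaling line. Tool versions and whole-library totals are not given in the sources used here, so reads in peaks stand for depth.

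Mutant reads were taken from the first read column. For H2AK121ub this was checked, since the second column repeats the WT libraries across the 3 mutants; for H3K27me3 it rests on the order of names in the tables. Peaks of the 2 replicates were matched as mutual best overlaps of at least 1 bp, and the limits given are those of replicate 1. Counts were tested with edgeR 4.0.16 (R 4.3.3, quasi-likelihood, rescaling offsets, replicate block, Benjamini-Hochberg adjustment over all matched peaks). Mutants were compared directly in 1 fit at WT peaks. Alternatives were total-read and TMM scaling, no block, DESeq2 1.42.0, stricter level limits (67% and 150%), no level limits, a minimum of 10 reads, a 50% overlap between replicates, gene bodies only, the peak nearest to the start, mutant limits and each replicate left out. Named were all CLE genes with both marks, CLE40, and the 3 with the largest change in each direction of each comparison. Members and lists were chosen with earlier results of these data known. Of 26 listed pathway genes, CIK1 to CIK4 were not matched by symbol. Gene models and sequences come from the TAIR10.1 annotation of RefSeq (Python 3.11.15, pandas 2.3.3, numpy 2.4.6).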

Additional observations from a re-analysis of the deposited data

Results flagged for a closer look

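Direct tests between the mutants (edgeR's quasi-likelihood test with Benjamini-Hochberg adjustment over all WT peaks of the joint fit) compared their H2AK121ub levels at CLE genes. Levels in clfswn were above those in atbmi1abc at 23 of 26 CLE genes, with log2 differences of 1.80 at CLE41, 1.80 at CLE2 and 1.33 at CLE5. CLE5 was also called in opposite directions against WT, increased in clfswn and reduced in atbmi1abc. The clfswn call was lost with DESeq2 (adjusted p = 0.35) and without the replicate block (0.27), and the atbmi1abc call without the block (0.062), with a sign that turned under total-read and TMM scaling (0.089 and 0.028). Levels in lhp1 were above those in atbmi1abc at 23 of 26 CLE genes, by 2.68 at CLE41, 2.23 at CLE44 and 2.11 at CLE11. Levels in lhp1 were above those in clfswn at 3 genes, by 1.15 at CLE44, 1.02 at CLE11 and 0.87 at CLE41. CLE11, at the peak inside the gene, was increased in lhp1 against WT and reduced in both other mutants. Its lhp1 call was lost with DESeq2 and without the block, and its difference between lhp1 and clfswn was not called without the block. The share of all 21112 genes with higher levels was 74.3% for clfswn over atbmi1abc, 85.7% for lhp1 over atbmi1abc and 25.2% for lhp1 over clfswn. With TMM scaling the counts were 8 higher and 2 lower for clfswn over atbmi1abc, 7 higher and 9 lower for lhp1 over atbmi1abc, and 3 higher and 7 lower for lhp1 over clfswn.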

How the results depend on the processing

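Of 187 alternative values of counts and medians over CLE genes, 143 stayed close to the value reported, 37 moved and 7 changed sign. Of 1427 alternative log2 ratios of single CLE genes, 1259 kept direction and, where a test was made, the call. Of the rest, 66 lost the call, 16 gained one and 86 changed sign, 33 of them with a call on at least 1 side. The 1259 include 100 values without replicate 1 and 105 without replicate 2, where no test remains. Scaling changed most. Scaled to total reads over matched peaks, H2AK121ub in atbmi1abc was reduced at 5 CLE genes and increased at 6 (median log2 ratio 0.12), in clfswn reduced at 2 (median 0.12), and in lhp1 reduced at 1 and increased at 0 (median -0.074), while H3K27me3 was increased at 7 genes in atbmi1abc (median 0.017) and had a median of -1.44 in clfswn. With TMM, H2AK121ub was reduced at 5 and increased at 5 in atbmi1abc (median 0.062), reduced at 2 in clfswn (median 0.091) and had a median of -0.047 in lhp1, H3K27me3 medians were -0.17 in atbmi1abc and -0.91 in clfswn, and 10 genes were called between clfswn and atbmi1abc and 10 between lhp1 and clfswn. The signs that changed for H2AK121ub in atbmi1abc under total-read and TMM scaling were those of CLE11 (0.23 and 0.17), CLE14 (0.93 and 0.87), CLE12 (0.32 and 0.26), CLE10 (0.20 and 0.14), CLE26 (0.11 and 0.050), CLE17 (0.42 and 0.36), CLE13 (0.23 and 0.17), CLV3 (0.65 and 0.59), CLE4 (0.22 and 0.16), CLE5 (0.089 and 0.028), CLE42 (0.12 and 0.057), CLE21 (0.91 and 0.85), CLE40 (0.58 and 0.52), CLE16 (0.42 and 0.36), CLE18 (0.13 and 0.068) and CLE22 (0.57 and 0.51). For H3K27me3 in clfswn they were CLE43 (0.11 and 0.63), CLE40 (0.062 and 0.58) and CLE13 (0.26 and 0.78), and with TMM also CLE11 (0.039) and CLE42 (0.46). These scalings assume that most peaks are unchanged, and they shifted the median of all genes by a like amount.

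Libraries with the same number deviated together (correlations of 0.525 to 0.731 over peaks, 2 pairs each), and the peak limits of a number are shared by its mutant and WT library. Without the replicate block, H2AK121ub in clfswn was reduced at 1 CLE gene and increased at 0 (median -0.036), H2AK121ub in lhp1 was increased at 0, and H3K27me3 in atbmi1abc was reduced at 6 and increased at 1. DESeq2 found H2AK121ub in clfswn reduced at 3 and increased at 0 (median -0.037) and in lhp1 increased at 0. With limits of 67% and 150%, H2AK121ub was reduced at 3 and increased at 1 in clfswn and increased at 0 in lhp1. Under mutant limits it was reduced at 2 in clfswn (median -0.032), with CLE41 at 0.11, and increased at 0 in lhp1, and the H3K27me3 median in atbmi1abc was -0.19. Gene bodies only, or the peak nearest to the start, gave a median of -0.077 in clfswn and -0.37 for CLE21. With either replicate left out, where no test remains, the H2AK121ub median in clfswn was -0.0564 to -0.0559, the H3K27me3 median in atbmi1abc was -0.34 to -0.25, and the median difference between lhp1 and clfswn 0.052 to 0.12. The cause of these moves was not tested. Depth limits values on few reads, such as those of CLE3, CLE18, CLE22, CLE40 and CLE43, with under 100 reads in some libraries.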
